A study of Oryctolagus cuniculus with 35 samples.

Results

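Mesenchymal stromal cells (MSC) given together with the antibiotic ceftaroline were set against ceftaroline alone in rabbit lung with pneumococcal pneumonia. The comparison takes 14 of the 35 libraries of the series, 7 from each group, and it is described over 9924 of 23669 genes, those that reached 10 in 7 or more of these libraries. The animals were New Zealand rabbits, and both groups had pneumonia with adverse mechanical ventilation. The ceftaroline group received ceftaroline-fosamil at 20 mg/kg into the muscle, and the other group received the same dose together with human umbilical cord-derived MSC at 3000000 cells per kg into a vein. Treatment followed 4 h after inoculation of the bacteria. Lung was collected at 24 h, or at once where a rabbit died before then, so libraries can differ in the time since treatment, and the labels do not say which animals died early. Every animal in both groups carried the infection, the ventilation and the antibiotic, and the groups differ by label in the added cells. The values are messenger RNA reads per gene divided by a size factor for the library, called normalized reads here. The infused cells were human and the genes are those of the rabbit, and the part of the reads that came from infused cells was not tested.

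Ceftaroline is a cephalosporin that blocks synthesis of the bacterial cell wall. MSC are connective-tissue cells that are infused as a treatment because they release factors that restrain inflammation, among them prostaglandin E2 and TNFAIP6, and factors that favour repair. In infected lung, alveolar macrophages and epithelium release IL6, TNF, IL1B and CXCL8, neutrophils follow CXCL8 into the air spaces, and the gas-exchanging epithelium loses its differentiated transcripts. The series' title asks how MSC bear on mitochondrial function and the immune response, and the design names this comparison among its own.

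Library depth was 11499403 to 33209729 recovered reads with ceftaroline and 11137017 to 18271138 with ceftaroline plus MSC, with reads in 11496 to 12017 genes. The tissue label was checked against marker genes: surfactant protein B (SFTPB), the alveolar claudin CLDN18 and the endothelial adhesion molecule PECAM1 were read in all 14 libraries, whereas surfactant protein C (SFTPC), the defining marker of type II cells, was listed at 0 in each. In all, 10496 of the 23669 genes were listed at 0 in all 14 libraries, among them defining lung genes, so a 0 is not read as absent expression. Each library description carries an S number of unstated meaning. It runs from 3 to 9 in the ceftaroline plus MSC libraries, is 1 and 2 in ceftaroline replicates 6 and 7, and runs from 10 to 14 in ceftaroline replicates 1 to 5. No S number is shared between the groups, so what it marks and the added cells cannot be told apart. Between the 2 sets of ceftaroline libraries, limma called 0 genes and gave 362 an unadjusted p under 0.05. The first principal component of the 14 libraries held 52.9% of the variance. The sign of the component was set so that higher IL6 goes with positive values. Ceftaroline replicates 1, 4 and 6 (56.6 to 61.4), ceftaroline plus MSC replicates 2 (48.3) and 1 (30.4) and ceftaroline replicate 2 (28.7) lay towards that end. Ceftaroline plus MSC replicates 3, 5 and 6 (-78.5 to -69.8) and ceftaroline replicate 7 (-58.1) lay at the other end, so the groups overlapped along it. The 2 ceftaroline libraries with S numbers 1 and 2, replicates 6 and 7, thus lay at opposite ends.

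Limma called 4 genes between ceftaroline plus MSC and ceftaroline alone, and this count changed with the tool and the libraries used. SEC62, an endoplasmic reticulum membrane protein of the machinery that moves new proteins into that organelle, rose and had the lowest p of all genes tested, and IL18R1, the ligand-binding chain of the receptor for the cytokine IL18, fell. The other 2, ENSOCUG00000021154 and ENSOCUG00000027927, carry no symbol in the deposited table and both rose. These calls come from limma on log2(value + 1), two-sided, at a Benjamini-Hochberg adjusted p under 0.05, and they are 0.0403% of the genes tested (0.0302% higher and 0.0101% lower). Before adjustment, 1143 genes (576 higher, 567 lower, 11.5% of those tested) had a p under 0.05. The median log2 fold change of all genes tested was 0.00.

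SEC62 (ENSOCUG00000008720) had 532 to 729 (median 575) normalized reads with ceftaroline and 1028 to 1463 (median 1123) with MSC added. No library of the ceftaroline group reached the lowest library of the other, and within the ceftaroline group replicates 6 and 7, at 729 and 718, were the highest. The means were 620.1 ± 77.9 and 1184 ± 158 normalized reads (SD, 7 libraries each), a log2 fold change of 0.93 (SE 0.11, limma adjusted p = 0.00463). The call held whichever of the 14 libraries was left out, with log2 fold changes between 0.88 and 0.97. Against the ceftaroline libraries with S numbers 10 to 14 alone the log2 fold change was 1.02 (limma adjusted p = 0.00245), and against those with S numbers 1 and 2 alone it was 0.70 (limma adjusted p = 0.995).

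ENSOCUG00000021154 had 2734 to 3315 (median 3067) normalized reads with ceftaroline and 4086 to 5072 (median 4706) with MSC added, again with no overlap. Its log2 fold change was 0.62 (SE 0.08, limma adjusted p = 0.00830), and this call too held without any 1 library. Against S numbers 10 to 14 alone the log2 fold change was 0.60 (limma adjusted p = 0.0509), and against S numbers 1 and 2 alone it was 0.66 (limma adjusted p = 0.995).

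IL18R1 (ENSOCUG00000016476) had 127 to 164 (median 152) normalized reads with ceftaroline and 49.1 to 89.7 (median 68.1) with MSC added. All 7 libraries with MSC were below all 7 without. The log2 fold change was -1.09 (SE 0.16, limma adjusted p = 0.0243), and it stayed between -1.16 and -1.01 whichever library was left out. The call was lost, however, in 8 of those 14 fits: those without ceftaroline replicate 2, 3, 5 or 7 and those without ceftaroline plus MSC replicate 2, 4, 5 or 6 (limma adjusted p up to 0.0952). IL18 itself, the ligand, had 760.2 to 3061 (median 2105) normalized reads with ceftaroline and 1376 to 3453 (median 2356) with MSC, a log2 fold change of 0.30 that did not pass the test (limma adjusted p = 0.639).

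ENSOCUG00000027927 had the largest change of the called genes, from 43.5 to 132 (median 66.9) to 104 to 531 (median 380.4) normalized reads. Ceftaroline plus MSC replicate 7, at 104, was below ceftaroline replicate 4, at 132, and the other libraries did not cross. The log2 fold change was 2.21 (SE 0.34, limma adjusted p = 0.0324). The call was lost in 12 of the 14 fits that left out 1 library, and held without ceftaroline replicate 4 or ceftaroline plus MSC replicate 7. Adjusted p in these fits ran from 0.00169, without the latter, to 0.114.

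**Figure D1:**
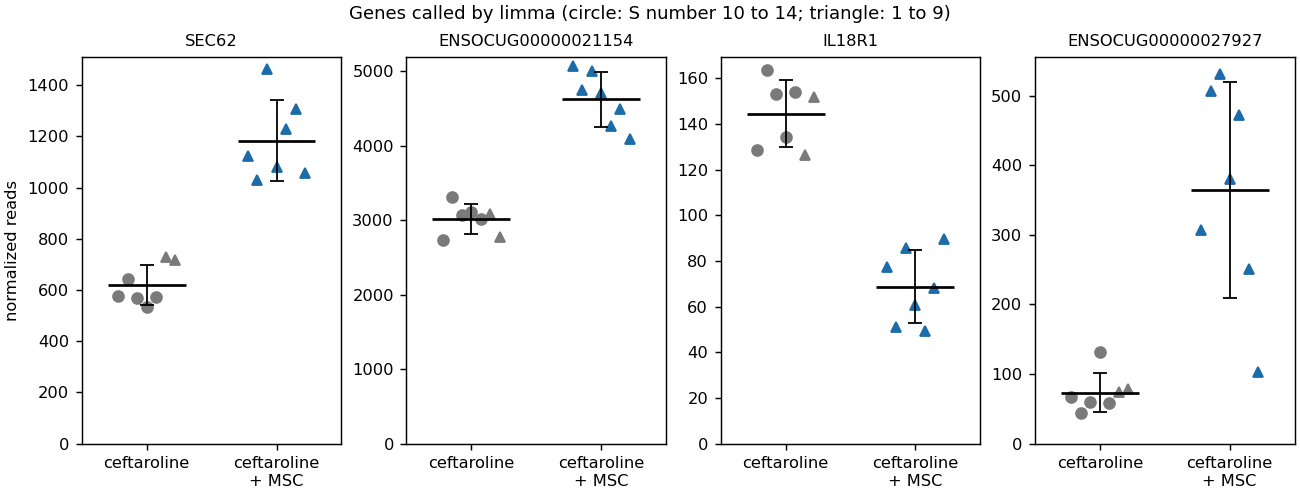
Normalized reads (vertical axis, starting at 0) of the 4 called genes in each of the 7 ceftaroline and 7 ceftaroline plus MSC libraries, with the mean (line) and SD (bar). Circles are libraries with S numbers 10 to 14 and triangles those with S numbers 1 to 9. SEC62, ENSOCUG00000021154 and IL18R1 do not overlap between groups, and ENSOCUG00000027927 overlaps through 1 library of each group.

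The number of calls depended on the count model. edgeR's quasi-likelihood test on the recovered reads called 11 genes (9 higher, 2 lower, 0.111% of those tested), DESeq2 called 99 (71 higher, 28 lower), and the authors' deposited table lists 108 at an adjusted p under 0.05 (75 higher, 33 lower). The 4 genes above were called by both tools and stand in the authors' deposited table. Of the 108, 98 were among the genes tested here, and all 98 had an unadjusted limma p under 0.05. Groups did not overlap in 30 genes, 26 higher and 4 lower with MSC, or 0.302% of those tested.

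**Figure D2:**
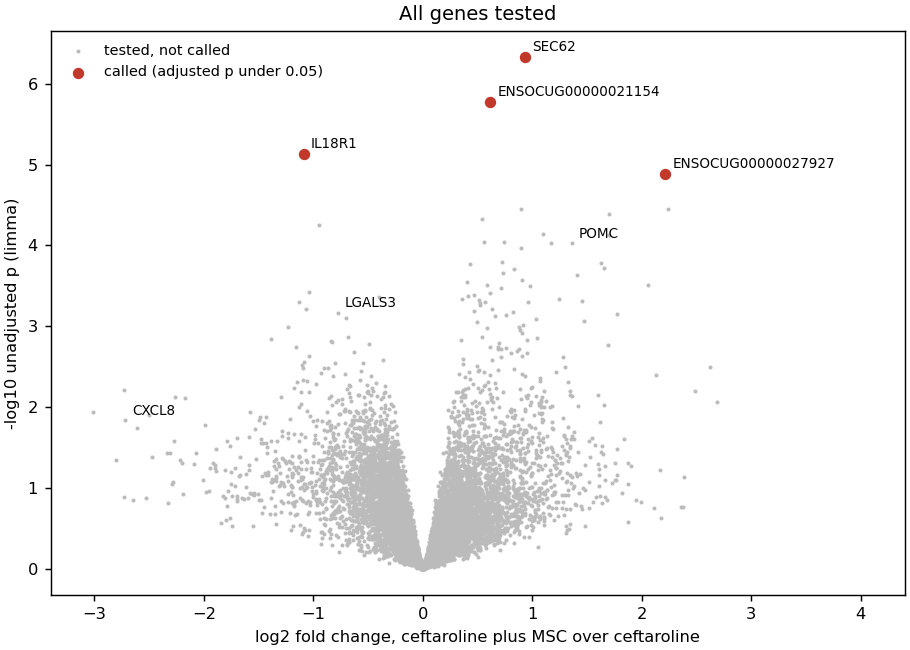
The log2 fold change of ceftaroline plus MSC over ceftaroline (horizontal axis) against -log10 of the unadjusted limma p (vertical axis) for the 9924 genes tested, with 1 point a gene. The 4 called genes are in red, and the largest differences in size, such as that of CXCL8 at -2.72, lie low on the vertical axis because libraries of a group differed widely.

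The other 9 genes named for the lowest p among higher values with MSC did not pass in limma. FBXL15, the substrate-binding part of a ubiquitin ligase, had 122 to 226 (median 169) normalized reads with ceftaroline and 258 to 361 (median 324) with MSC. Its groups did not overlap, its log2 fold change was 0.90 (SE 0.15), and it passed in edgeR (adjusted p = 0.0472) but not in limma (adjusted p = 0.0574). BOLA1, a mitochondrial protein of the iron-sulfur cluster and thiol redox system, had 440.3 to 569 (median 479) and 608 to 865 (median 709.9) normalized reads, likewise without overlap (log2 fold change 0.54, SE 0.09, limma adjusted p = 0.0587, edgeR adjusted p = 0.0471). PEX14, part of the docking complex that imports proteins into peroxisomes, had 699.6 to 917 (median 748) and 945 to 1181 (median 1061), and the groups did not overlap (log2 fold change 0.43, limma adjusted p = 0.0875). MPST, an enzyme that makes hydrogen sulfide from mercaptopyruvate, had 399 to 779.9 (median 496) and 791 to 1104 (median 889), with no overlap (log2 fold change 0.73, limma adjusted p = 0.0987). These 4 genes had all their libraries with MSC above all those without it.

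Another endoplasmic reticulum membrane protein, SAYSD1, had 184 to 264 (median 243) normalized reads with ceftaroline and 313 to 362 (median 346) with MSC, and its groups did not overlap (log2 fold change 0.55, limma adjusted p = 0.0617). ZDHHC24, of the family of enzymes that attach palmitate to proteins, had a log2 fold change of 1.10 and C11orf68 one of 0.74, both without overlap and both with a limma adjusted p of 0.0617. LZTS2, a protein that binds beta-catenin, overlapped between groups at a log2 fold change of 0.83 (limma adjusted p = 0.0935). POMC, the precursor of corticotropin and the melanocortins, had 74.1 to 244 (median 137) normalized reads with ceftaroline and 243 to 628 (median 351) with MSC. Only the top of the first range and the bottom of the second crossed, and the log2 fold change was 1.36 (SE 0.25, limma adjusted p = 0.0617).

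Beside IL18R1, 9 genes were named for the lowest p among lower values with MSC, and none of these passed in limma. LGALS3, galectin-3, a lectin of macrophages and epithelium, had 17363 to 28002 (median 23518) normalized reads with ceftaroline and 9455 to 20756 (median 13125) with MSC. The groups overlapped, and the log2 fold change was -0.78 (SE 0.18, limma adjusted p = 0.140). HILPDA, a lipid droplet protein induced by hypoxia, had 147 to 466 (median 354) and 86.4 to 207 (median 119) (log2 fold change -1.08, limma adjusted p = 0.302). TIPARP, a mono-ADP-ribosyltransferase and target of the aryl hydrocarbon receptor, had 1358 to 5611 (median 2752) and 1091 to 2524 (median 1408) (log2 fold change -1.09, limma adjusted p = 0.325). Both overlapped between groups.

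SPOPL, an adaptor of a cullin ubiquitin ligase, was the 1 gene of this set beside IL18R1 whose groups did not overlap, at 903 to 1257 (median 1003) and 696 to 871 (median 780.3) normalized reads (log2 fold change -0.40, limma adjusted p = 0.120). B3GNT2, which builds poly-N-acetyllactosamine chains, had a log2 fold change of -0.71, the arrestin-domain protein ARRDC3 one of -0.69, the chromatin repressor MIER1 one of -0.63, SLC35G1 one of -0.80 and RELL1 one of -0.90. The limma adjusted p of these 5 lay between 0.152 and 0.325.

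Cytokines and chemokines had lower mean log2 levels with MSC, the libraries of each group were spread widely, and none passed. Of 24 listed, 15 were tested, 13 had lower and 2 higher means on the log2 scale, and the list's median log2 fold change was -1.30 against 0.00 over all genes tested. The unadjusted p was under 0.05 in 4 of them (CXCL8, IL1A, CCL4 and IL23A), and in 11.5% of all genes tested. IL6, which drives the acute-phase response, had 4923, 13474, 619, 6339, 1200.2, 14525 and 34.9 normalized reads in ceftaroline replicates 1 to 7. With MSC added it had 6589, 1475, 24.5, 3364, 36.4, 8.79 and 965 in replicates 1 to 7. It was under 100 in ceftaroline replicate 7 and in ceftaroline plus MSC replicates 3, 5 and 6, and over 600 in the other 10 libraries. The log2 fold change was -2.73 (SE 1.69, limma adjusted p = 0.479).

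CXCL8, the chemokine that draws neutrophils, had 3718 to 305074 (median 20884) normalized reads with ceftaroline and 609 to 11183 (median 5425) with MSC. Ceftaroline replicate 6 was the highest, and 4 libraries of the ceftaroline group (1, 2, 4 and 6) were above every library with MSC. Its log2 fold change was -2.72 (SE 0.98, limma adjusted p = 0.416), and the authors' deposited table gives -3.51 with an adjusted p of 0.0114. IL1B, the cytokine released by inflammasomes, had 968 to 37828 (median 4144) and 259 to 8139 (median 3804) normalized reads, with close medians and the spread in the tails (log2 fold change -1.89, SE 0.93, limma adjusted p = 0.435). TNF, an early macrophage cytokine, had 85.3 to 1127 (median 958) and 25.3 to 1796 (median 567.8), and the library with the most TNF was one with MSC (log2 fold change -1.30, SE 0.95, limma adjusted p = 0.526). IL1A, a cytokine released by damaged cells, had a log2 fold change of -2.27 (SE 0.92), the chemokine CCL4, which attracts monocytes, one of -2.47 (SE 1.10), and IL23A, a subunit of IL23, one of -2.20 (SE 1.02). CSF2, the growth factor of granulocytes and macrophages, was one of the 2 with a higher mean log2 level (0.51, SE 0.32, limma adjusted p = 0.483), beside IL18. CXCL10 and CXCL11, interferon-induced chemokines for T cells, had log2 fold changes of -0.40 (limma adjusted p = 0.877) and -0.31 (limma adjusted p = 0.918), although their median normalized reads were higher with MSC, at 8607 against 6290.0 and 11324 against 4529.6.

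Genes of the list of anti-inflammatory and feedback genes also had lower means. Of 13 tested, 12 had lower means with MSC, with a median log2 fold change of -0.98, and 5 had an unadjusted p under 0.05 (NFKBIZ, ANXA1, IL1R2, IRAK3 and IL10). Over all genes tested, 11.5% had such a p. IL10, a cytokine that dampens macrophages, had 17.7 to 1714 (median 89.3) normalized reads with ceftaroline and 6.12 to 73.0 (median 24.9) with MSC. Ceftaroline replicate 6, at 1714, stood far above the other 13 libraries, and the log2 fold change was -1.91 (SE 0.89, limma adjusted p = 0.432), while the authors' deposited table gives an adjusted p of 0.0208. ANXA1, the glucocorticoid-induced protein that slows neutrophil entry, had 26815 to 68454 (median 43642) and 21285 to 35638 (median 27096) (log2 fold change -0.58, SE 0.24, limma adjusted p = 0.426). IL1R2, the decoy receptor for IL1, had 1344 to 25228 (median 11132) and 174 to 5974 (median 1715) (log2 fold change -2.34, SE 1.02, limma adjusted p = 0.426). In another list, of prostaglandin synthesis and receptors, 4 of 6 had lower means (median -0.21) and none had an unadjusted p under 0.05. PTGS2, the inducible enzyme of prostaglandin synthesis, had 588 to 31480.1 (median 9033) and 454 to 5344 (median 1612) (log2 fold change -1.67, SE 0.85, limma adjusted p = 0.438), while HPGD, which breaks prostaglandins down, had a log2 fold change of 1.00 (SE 0.83).

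Neutrophil markers differed in the same direction as these lists. Of 16 markers, 7 were tested and all 7 had lower means with MSC, with a median log2 fold change of -1.57, and 3 (CSF3R, MMP9 and PADI4) were listed at 0 in all 14 libraries. Their summed level ranged from 74003 to 2209927 normalized reads (median 417906) with ceftaroline and from 25695 to 733869 (median 162086) with MSC, so the groups overlapped. In bulk lung, fewer cells of a type and less RNA per cell cannot be told apart. S100A8, a subunit of calprotectin, had 25354 to 764563 (median 136321) and 7305 to 292938 (median 65351) normalized reads (log2 fold change -1.57, SE 0.94, limma adjusted p = 0.474). CXCR1, a receptor for CXCL8, had 812 to 8062 (median 3079.8) and 153 to 4248 (median 1076) (log2 fold change -1.79, SE 0.72, limma adjusted p = 0.426). MPO, the peroxidase of neutrophil granules, was low, at 13.9 to 67.1 (median 23.7) and 3.39 to 32.1 (median 10.8) (log2 fold change -1.24, SE 0.49, limma adjusted p = 0.426). The part of neutrophil content in the cytokine values was not tested.

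Other immune cell markers differed less. Of 10 monocyte and macrophage markers tested, 7 had lower means with MSC (median log2 fold change -0.24), but the median was 0.23 against the ceftaroline libraries with S numbers 1 and 2 alone and -0.46 against S numbers 10 to 14. The macrophage mannose receptor MRC1 had a log2 fold change of -0.38 (SE 0.19) and CD14, the lipopolysaccharide co-receptor, one of -0.89 (SE 0.47). T and NK cell markers were lower in 5 of 6 (median -0.32), among them the pore-forming PRF1 (-0.91, SE 0.46), and B and plasma cell markers in 9 of 10 (median -0.34). JCHAIN, which joins secreted IgM and IgA, had 6303 to 11506 (median 10785) normalized reads with ceftaroline and 4252 to 12678 (median 7081) with MSC, and was the 1 of these 26 tested markers with an unadjusted p under 0.05 (log2 fold change -0.50, SE 0.23, limma adjusted p = 0.426). Interferon-induced genes were lower in 8 of 12, with a median log2 fold change of -0.26 that was 0.95 against the ceftaroline libraries with S numbers 1 and 2 alone and -0.62 against S numbers 10 to 14. GBP1, an interferon-induced GTPase, had a log2 fold change of -1.34 (SE 1.19) and the transcription factor IRF1 one of -0.94 (SE 0.77). Genes of MHC class II presentation were higher in 7 of 10 (median 0.12), and genes of innate sensing lower in 8 of 9 (median -0.41). Both directions turned between the sets of ceftaroline libraries: against S numbers 1 and 2 the medians were 0.49 and 0.02, and against S numbers 10 to 14 they were -0.09 and -0.60.

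**Figure D3:**
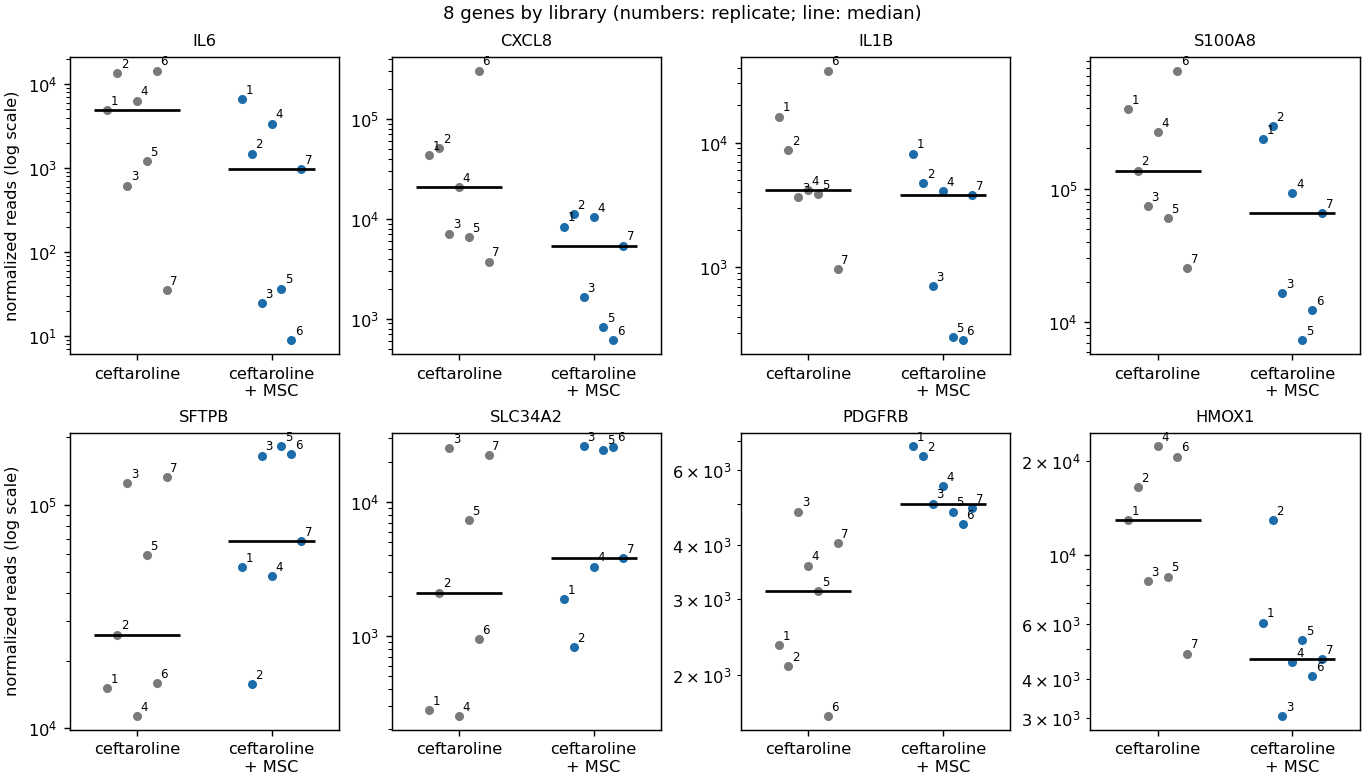
Normalized reads (log scale) of 8 genes in each library, labelled by replicate number, with the median of each group as a line. IL6, CXCL8, IL1B and S100A8 were low in ceftaroline plus MSC replicates 3, 5 and 6, which are among the 5 libraries with the highest SFTPB and SLC34A2. In PDGFRB the groups overlap through ceftaroline replicate 3.

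Alveolar epithelial transcripts had higher mean log2 levels with MSC, without a gene that passed. All 9 tested markers of type I cells, the thin gas-exchanging cells, had higher means on this scale (median log2 fold change 0.56). So did the 3 tested markers of type II cells, which make surfactant (median 1.09). The summed type I level, however, had a lower median with MSC, 72076 normalized reads against 87550 with ceftaroline. The summed type II level had a higher one, 74378 against 30092. With MSC the type I list level was 1.35 to 1.57 in replicates 3, 5 and 6 and -1.27 to -0.19 in the others. ABCA3, CTSH, SFTPC and SFTPD were listed at 0 in all 14 libraries. SFTPB had 11305 to 132333 (median 26151) normalized reads with ceftaroline and 15699 to 182478 (median 68439.7) with MSC, and ceftaroline replicates 3 and 7 with ceftaroline plus MSC replicates 3, 5 and 6 were the 5 highest libraries (log2 fold change 1.09, SE 0.69, limma adjusted p = 0.483). SLC34A2, the phosphate transporter of type II cells, had 252 to 25236 (median 2107) and 819.7 to 26198 (median 3806), and the same 5 libraries were the highest (log2 fold change 1.30, SE 1.20, limma adjusted p = 0.595). Among type I markers, the chloride channel protein CLIC5 had a log2 fold change of 0.68 (SE 0.48) and RTKN2 one of 0.90 (SE 0.71). Against the ceftaroline libraries with S numbers 1 and 2 alone the type I median was 0.00, with 5 markers higher and 4 lower.

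Genes of ciliated airway epithelium had higher means in 7 of 8 (median 0.34), but all 8 were lower against S numbers 1 and 2 alone (median -0.21) and all 8 higher against S numbers 10 to 14 (median 0.71). Their direction thus differed between the 2 sets of ceftaroline libraries. Endothelial markers were split, 6 higher and 5 lower (median 0.04), with log2 fold changes from -1.20 to 2.11. PECAM1 and SELE were named for the lowest p of the list, and both had lower means. PECAM1 had 3789.9 to 13072 (median 6294) normalized reads with ceftaroline and 3502 to 5746 (median 3829) with MSC (log2 fold change -0.61, SE 0.27, limma adjusted p = 0.426), and E-selectin (SELE), which catches leukocytes on activated endothelium, had 46.3 to 496 (median 266) and 19.4 to 275 (median 149) (log2 fold change -1.20, SE 0.67). Barrier junction genes were higher in 6 of 9 (median 0.15) and genes of fluid and ion transport in 8 of 11 (median 0.14). The medians of the endothelial, barrier and transport lists also turned, at -0.16, -0.07 and -0.03 against S numbers 1 and 2 and 0.15, 0.22 and 0.20 against S numbers 10 to 14. The chloride cotransporter SLC12A2 had a log2 fold change of 0.50 (SE 0.28).

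Smooth muscle and pericyte genes had higher means with MSC in all 8 tested of 12 listed, with a median log2 fold change of 0.85. Of the 8, 5 had an unadjusted p under 0.05, where 11.5% of all genes tested did. None of the 8 passed after adjustment. PDGFRB, the receptor through which pericytes and fibroblasts sense PDGF, had 1600.4 to 4790.4 (median 3131) normalized reads with ceftaroline and 4488 to 6816 (median 5006) with MSC. Ceftaroline replicate 3 was the single library of that group within the range of the other, and the log2 fold change was 0.89 (SE 0.22, limma adjusted p = 0.181). PDGFB, its ligand, had 636 to 1403 (median 889.6) and 1191 to 1925 (median 1583) (log2 fold change 0.69, SE 0.18, limma adjusted p = 0.242). ACTA2, smooth muscle actin, had 1298 to 4279 (median 1941) and 2426 to 20177 (median 3821), the top of the second range being replicate 3, well above the other libraries of its group (log2 fold change 1.18, SE 0.44, limma adjusted p = 0.426). The actin nucleator LMOD1 had a log2 fold change of 1.10 (SE 0.39), the myosin kinase MYLK one of 0.80 (SE 0.35) and the smooth muscle myosin MYH11 one of 0.91 (SE 0.41). The list's summed level ranged from 5817 to 16336 normalized reads with ceftaroline and from 12117 to 43842 with MSC, and CSPG4 and NOTCH3 were listed at 0. The median stayed between 0.64 and 0.99 whichever library was left out. It was lowest without ceftaroline plus MSC replicate 3, which also had the most LMOD1 (1279 normalized reads). The median was 0.81 against S numbers 1 and 2 and 0.83 against S numbers 10 to 14.

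Of the matrix genes, 3 fibrillar collagens had an unadjusted p under 0.05, where 11.5% of all genes tested did. COL1A1 had 3951 to 11167 (median 5045) normalized reads with ceftaroline and 7387 to 10034 (median 8925) with MSC, COL1A2 had 1210.0 to 13509.5 (median 2117) and 6304 to 11968 (median 8521), and COL3A1 had 1085 to 26340.0 (median 2901) and 13798 to 26992 (median 17505). In all 3 the ceftaroline libraries were spread more widely, from below the lowest library with MSC to near the highest or above it, and had the lower median. The log2 fold changes were 0.56 (SE 0.22), 1.36 (SE 0.54) and 1.84 (SE 0.73), each with a limma adjusted p of 0.426. The other 7 tested genes of the fibroblast and matrix list had an unadjusted p of 0.05 or more. The list's median was 0.59, with 6 genes higher and 4 lower and log2 fold changes from -0.76 to 1.84. Its summed level had a lower median with MSC, 155684 normalized reads against 254536 with ceftaroline, the direction opposite to that of the 3 collagens. Among repair growth factors, 8 of 13 had higher means (median 0.21), but the epidermal growth factor receptor ligands AREG (-1.24, SE 0.48) and HBEGF (-1.21, SE 0.56) had lower ones. Against S numbers 1 and 2 the median of the repair list was -0.20. AREG had 59.9 to 683 (median 201) normalized reads with ceftaroline and 38.7 to 176 (median 107) with MSC. F3, tissue factor, which starts coagulation, had 5210.0 to 13480.1 (median 6542) and 2835 to 7196 (median 5509) (log2 fold change -0.75, SE 0.26, limma adjusted p = 0.410), and its list of 7 had a median of -0.30. C1QA, a chain of the complement component that binds antibody, had 409 to 1424 (median 641) and 598 to 2088 (median 1434) (log2 fold change 0.71, SE 0.32, limma adjusted p = 0.432), with a median of 0.16 over 9 complement genes, which was 0.75 against S numbers 1 and 2 and -0.08 against S numbers 10 to 14. Striated muscle and red cell markers would mark other tissue or blood in the piece. Their medians were 0.48 (3 tested) and -0.11 (6 tested), and none of them had an unadjusted p under 0.05. This group test does not show whether single libraries held other tissue. TNNT2, a striated marker, had 156 and 493 normalized reads in ceftaroline plus MSC replicates 2 and 3. It had at most 36.7 in every other library. ACTN2, another of the 3 tested striated markers, had 40.2 and 37.7 in these replicates, inside its range of 11.1 to 61.5 over the 14 libraries. Replicate 3 with MSC also had the highest striated (1.33) and smooth muscle (1.63) list levels of the 14 libraries. The part of other tissue in its smooth muscle values was not tested.

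**Figure D4:**
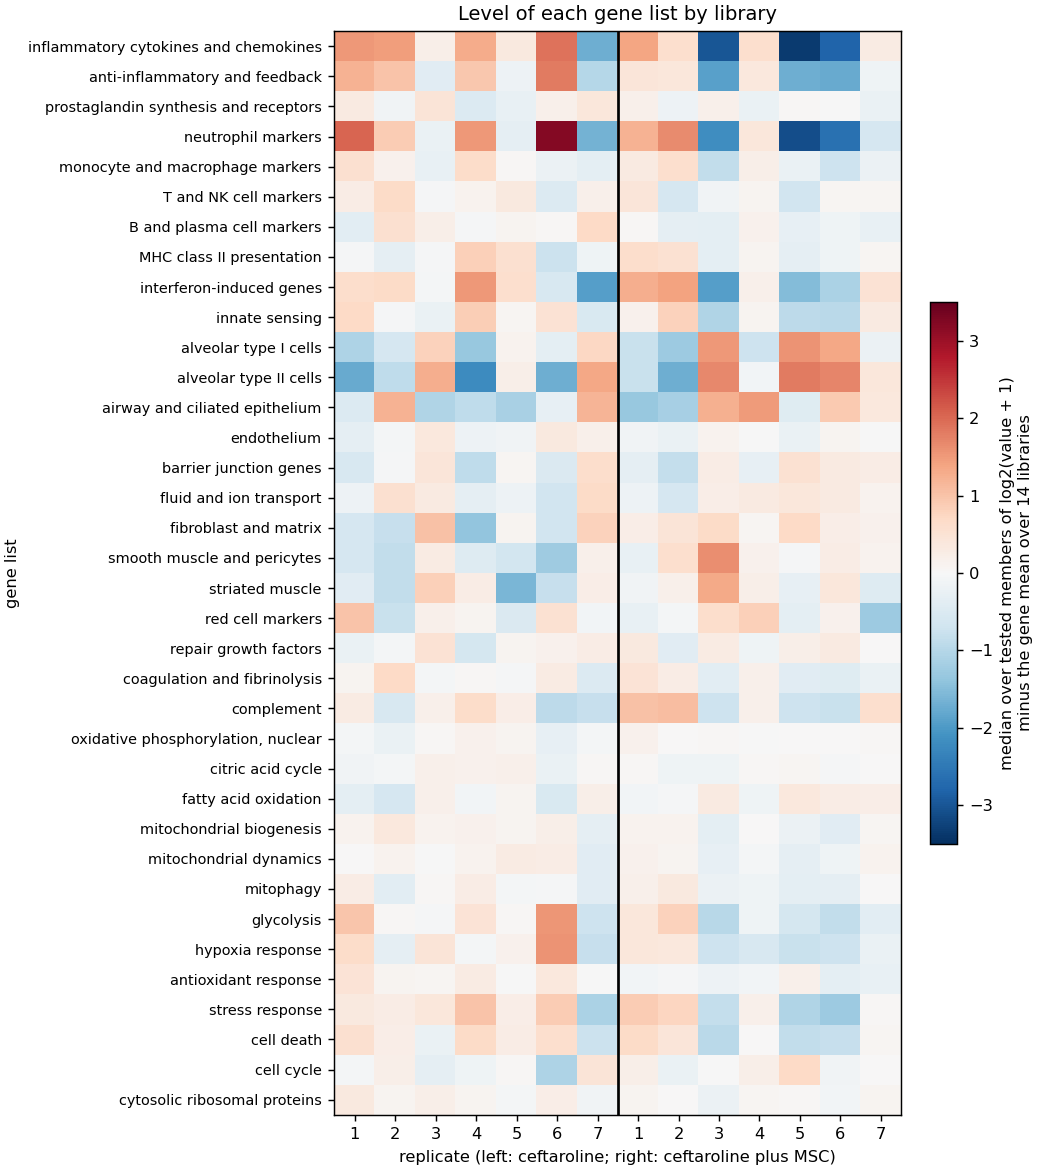
Level of each of the 36 gene lists in each library, as the median over the tested members of log2(value + 1) minus the gene's mean over the 14 libraries (red higher, blue lower). Neutrophil markers ran from -1.64 to 3.20 with ceftaroline and from -3.10 to 1.66 with MSC. Ceftaroline plus MSC replicates 3, 5 and 6 and ceftaroline replicate 7 are low in cytokine and neutrophil lists and high in alveolar lists.

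Lists of mitochondrial function, which the series' title names, had median log2 fold changes between -0.24 and 0.25. Of 13 nuclear genes of oxidative phosphorylation tested, 11 had higher means with MSC, with a median log2 fold change of 0.12. COX5B, a subunit of cytochrome c oxidase, had 4319 to 6997 (median 5589) normalized reads with ceftaroline and 5876 to 7830.1 (median 6921) with MSC (log2 fold change 0.32, SE 0.11, limma adjusted p = 0.405). NDUFB3 and NDUFB6, accessory subunits of complex I, had log2 fold changes of 0.37 (SE 0.13) and 0.29 (SE 0.12). Of the 13, 4 had an unadjusted p under 0.05, these 3 with higher means and 1 with a lower mean. Over all genes tested, 11.5% had such a p. TFAM, which packages and transcribes mitochondrial DNA, had 549 to 874 (median 625) and 459.9 to 611 (median 516) normalized reads (log2 fold change -0.28, SE 0.12, limma adjusted p = 0.426). PPARGC1A, a coactivator of mitochondrial biogenesis, was under the minimum for testing, at 1.27 to 16.1 (median 9.75) and 2.62 to 13.9 (median 7.69), and MFN2, a protein of mitochondrial fusion, was listed at 0 in all 14 libraries. PINK1, a kinase of mitochondrial quality control, had 1904 to 5074 (median 2451) and 2728 to 7473 (median 3259.7) (log2 fold change 0.48, SE 0.29, limma adjusted p = 0.479).

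Fatty acid oxidation genes had higher means in 9 of 10 (median 0.25), among them the carnitine carrier SLC25A20 (0.26, SE 0.13) and the dehydrogenase ACADL (0.32, SE 0.16). Citric acid cycle genes had a median of -0.03, biogenesis genes one of -0.24, fusion and fission genes one of -0.13 and mitophagy genes one of -0.10. The citric acid cycle, fusion and fission and mitophagy medians were above 0 against S numbers 1 and 2 (0.16, 0.03 and 0.10) and below 0 against S numbers 10 to 14. Of the 36 lists, 13 had medians of opposite sign against the 2 sets of ceftaroline libraries. Some of these medians were near 0, such as 0.02 for innate sensing and -0.03 for fluid and ion transport against S numbers 1 and 2. That set holds only 2 libraries, ceftaroline replicates 6 and 7, which lay at 56.6 and -58.1 on the first principal component. Glycolysis genes, by contrast, had lower means in all 10 tested (median -0.59), and the count was 10 of 10 without any 1 library and against either set of S numbers. HK2, the inducible hexokinase, had 4177 to 8522 (median 6014) normalized reads with ceftaroline and 2661 to 6373 (median 3611) with MSC (log2 fold change -0.60, SE 0.23, limma adjusted p = 0.426). SLC2A1, the glucose transporter GLUT1, had 359.9 to 3101 (median 969) and 280.4 to 894 (median 392.2) (log2 fold change -1.13, SE 0.45, limma adjusted p = 0.426). Activated neutrophils and macrophages also use glycolysis, and neutrophil markers differed in the same direction (-1.57), whose part in these values was not tested.

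Hypoxia response genes had lower means in 11 of 12 (median -0.60), with 4 at an unadjusted p under 0.05, where 11.5% of all genes tested were. HIF1A, the oxygen-regulated transcription factor, had 3452 to 15725 (median 11481) and 1694 to 7559 (median 5991) normalized reads (log2 fold change -0.96, SE 0.44), the mTOR inhibitor DDIT4 had 10694 to 66288 (median 29570.3) and 6639 to 32080.0 (median 16585), and NDRG1 had a log2 fold change of -0.74 (SE 0.33). In the antioxidant response, 9 of 13 had lower means (median -0.39). HMOX1, heme oxygenase 1, had 4816 to 22359 (median 12902) normalized reads with ceftaroline and 3035 to 12937 (median 4625) with MSC, where 6 of the 7 libraries with MSC were below 6 of the 7 without (log2 fold change -1.18, SE 0.36, limma adjusted p = 0.385). GCLM, a subunit of the enzyme that limits glutathione synthesis, had 1360.0 to 5227 (median 3566) and 602 to 2316 (median 1362) (log2 fold change -1.15, SE 0.35, limma adjusted p = 0.383). The cystine transporter SLC7A11 (-1.59, SE 0.63) and the thioredoxin reductase TXNRD1 (-0.40, SE 0.18) also had lower means. These 4 had an unadjusted p under 0.05 and are the members named for the lowest p or after their values were seen. Among the 4 members with higher means, the extracellular superoxide dismutase SOD3 had the largest, at 1.32 (SE 0.66), and catalase (CAT) had 0.22 (SE 0.16).

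Stress response genes had lower means in all 6 tested (median -0.46; ASNS -0.47, ATF3 -0.92) and cell death genes in 7 of 8 (median -0.35; CASP8 -0.44, FAS -1.23), with no unadjusted p under 0.05 in either list. Cell cycle genes had higher means in 12 of 13 (median 0.25), and the lowest p were those of the replication helicase subunits MCM6 (0.47, SE 0.19) and MCM5 (0.64, SE 0.29). Cytosolic ribosomal protein genes had a median of -0.14, and RPL19 had a log2 fold change of 0.34 (SE 0.14). Of the 8 tested, 1 with a higher and 1 with a lower mean had an unadjusted p under 0.05, where 11.5% of all genes tested did. Over the 36 lists, 15 medians were higher and 21 lower with MSC, and no tested member of any list was called by limma, where 0.0403% of all genes tested were. The lists share members and libraries, so their directions are not separate evidence.

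Whether the added cells changed a gene differently in the presence of the antibiotic was tested in 1 limma fit over the 28 libraries of the 4 pneumonia groups (10122 genes, scaled together, with saline (NaCl), MSC, ceftaroline or both). The interaction passed for 1 gene, SEC62. On this scale SEC62 had means of 605 normalized reads with NaCl, 479 with MSC, 482 with ceftaroline and 924 with both. The MSC effect was -0.32 (SE 0.15) without and 0.93 (SE 0.15) with ceftaroline, a difference of 1.26 (SE 0.22, limma adjusted p = 0.0354). Some libraries of the groups without ceftaroline, 3 with NaCl and 2 with MSC, have titles ending in PG, and no library of the ceftaroline groups has. SEC62 had 717 to 882 normalized reads in the NaCl libraries with these titles and 469 to 501 in the other 4, and 599 to 682 against 365 to 445 in the MSC libraries. The highest of them, at 882, lay inside the range of the libraries with both treatments (806 to 1143). Without the PG libraries the MSC effect on SEC62 in the absence of ceftaroline was -0.21 (SE 0.12) and the difference 1.15 (SE 0.15, limma adjusted p = 0.000507). The ceftaroline groups share no S number, so what it marks and the MSC effect with ceftaroline cannot be told apart in this difference.

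ENSOCUG00000021154 had a difference of 0.79 (SE 0.16, limma adjusted p = 0.125) and ENSOCUG00000027927 one of 2.63 (SE 0.59, limma adjusted p = 0.129), neither past the threshold. Both passed without the PG libraries, ENSOCUG00000021154 at 0.61 (SE 0.13, limma adjusted p = 0.0390) and ENSOCUG00000027927 at 3.28 (SE 0.63, limma adjusted p = 0.0150), in a fit that called 41 genes where the fit of all 28 libraries called 1. IL18R1 was lower with MSC on either background, at -0.74 (SE 0.34) without and -1.08 (SE 0.34) with ceftaroline, and its difference was -0.34 (SE 0.49, limma adjusted p = 0.990). In this fit, whose spread is pooled over 4 groups, the IL18R1 contrast with ceftaroline no longer passed (limma adjusted p = 0.458). PDGFRB had effects of 1.03 (SE 0.27) and 0.89 (SE 0.27) without and with ceftaroline, CXCL8 had -2.59 (SE 1.00) and -2.72 (SE 1.00), and HMOX1 had -1.69 (SE 0.44) and -1.18 (SE 0.44). These 2 contrasts share no libraries. Their differences were -0.14 (SE 0.39), -0.13 (SE 1.42) and 0.52 (SE 0.62), and none passed. Misses of this kind do not show that the effects were alike, given the SE of CXCL8.

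**Figure D5:**
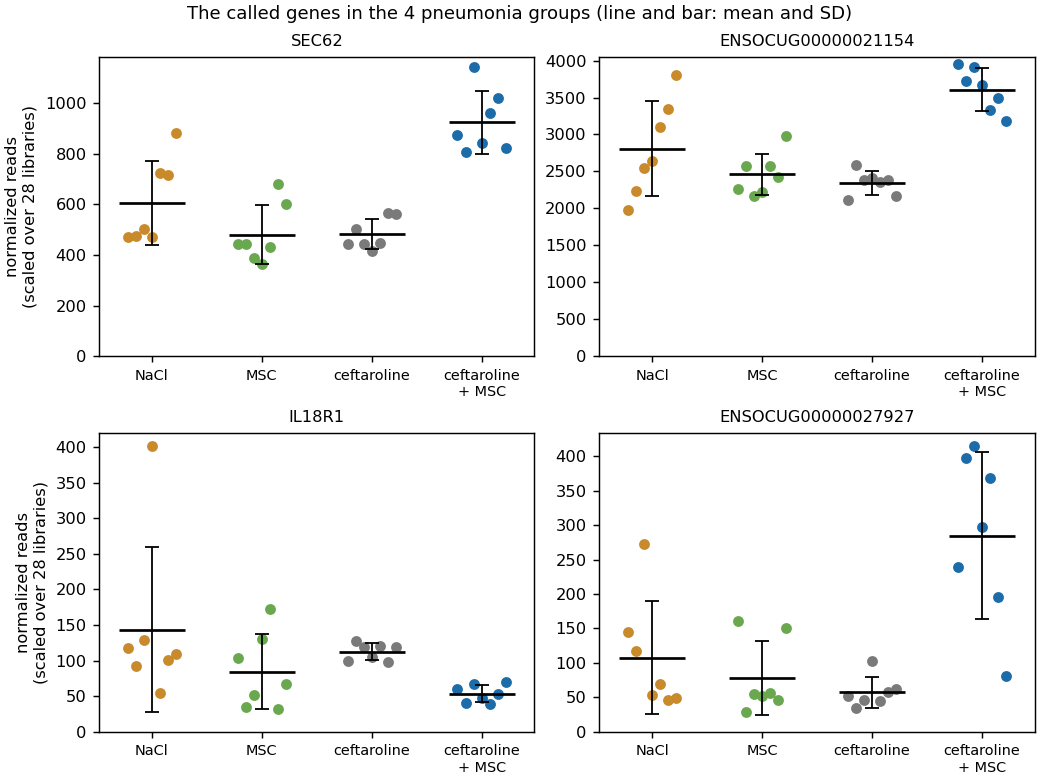
Normalized reads, scaled over 28 libraries (vertical axis, starting at 0), of the 4 called genes in the NaCl, MSC, ceftaroline and ceftaroline plus MSC groups, 7 libraries each, with the mean (line) and SD (bar). The means of SEC62, ENSOCUG00000021154 and ENSOCUG00000027927 are highest with both treatments, and IL18R1 has its lowest mean there.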

How the data were processed

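Per the labels' protocols, stranded messenger RNA libraries were read from 1 end on a NextSeq500 and adapters were trimmed with Cutadapt. The submitters' processing notes name TopHat2 2.1.1, featureCounts 1.5.2 and DESeq2 1.24.0, with no role given. The genome build is not given in the sources used here. In the deposited table of this comparison, per the file headers, each library column is a signal of reads per gene divided by a size factor. Values were whole multiples of the lowest nonzero value (100% within a relative tolerance of 1e-06), so whole read counts could be recovered from the deposited values. Beside them, the authors' deposited table gives the log2 fold change with its error (log2), the Wald score, the p-value and the adjusted p-value, of which fold changes and adjusted p are used. The 35 libraries are of 35 samples titled by group and number, and each is counted as 1 rabbit because the design text gives 7 rabbits a group. No 2 libraries of a group agreed within counting noise (lowest chi-square per degree of freedom 33.4).

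Genes that reached 10 in 7 or more of 14 libraries were tested by limma 3.58.1 (R 4.3.3), two-sided and without covariates, after log2(value + 1) transformation and with limma's trend option. A Benjamini-Hochberg adjusted p under 0.05 was a call. The pseudocount of 1 understates changes of low genes. edgeR 4.0.16 and DESeq2 1.42.0 were run on recovered reads. The 28-library fit used the same recovered reads with 1 set of median-of-ratios size factors. The scripts were tested on simulated data. Named genes are, in each direction, the 10 with the lowest p (called genes first) among those carrying a symbol and averaging 50 normalized reads or more, then a panel of 10 genes, then from each of 36 lists its 2 tested genes of lowest p. ENSOCUG identifiers without a symbol are named because limma called them, and further list members were named after their values were seen. Values of a few such genes are left out here, though their lists count them. The members and lists were chosen with earlier results of these data known. Of 583 list genes, 423 matched a symbol and 321 were tested. No pairing by replicate number is stated, and libraries of the same number showed no steady correlation of deviations (4 of 7 pairs over 0.1, range -0.38 to 0.48). No block was therefore fitted in the main test. Alternatives were other pseudocounts, filters, scalings and tools, sample weights, a replicate block, each library left out, and either set of S numbers.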

Additional observations from a re-analysis of the deposited data

Results flagged for a closer look

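The effect of MSC on SEC62 differed by antibiotic in the 28-library fit, the effect in ceftaroline-treated animals being higher by 1.26 on the log2 scale (limma adjusted p = 0.0354). The NaCl and MSC groups hold 3 and 2 libraries with titles ending in PG, the ceftaroline groups hold none, and SEC62 was higher in these libraries than in the others of their group. Without them the difference was 1.15 (limma adjusted p = 0.000507). The part of what the titles mark was not tested. No S number is shared between the ceftaroline groups, so what it marks and a difference by antibiotic cannot be told apart.

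In 260 groups of 7 libraries (the named genes and list levels, each in both treatment groups, on the log2 scale), the gap between the most extreme library and its neighbour passed Dixon's 95% critical value of 0.568 in 10. Chance flags about 1 group in 20, so these 10 flags are no more than chance would give. Genes and lists also share libraries, so the flags are not separate. Ceftaroline replicate 7 was the low library of its group for 4 genes of inflammation and stress, with 85.3 normalized reads of TNF, 1133 of IRF1, 46.3 of SELE and 404 of ATF3. It was also low for YME1L1, a mitochondrial inner membrane protease (1168), for the level of the stress response list (-1.11) and for that of the mitochondrial biogenesis list (-0.32). The protease PLAU was high in ceftaroline replicate 2 (1891), MCM6 was high in ceftaroline plus MSC replicate 5 (1558), and the oxidative phosphorylation list was high in ceftaroline plus MSC replicate 1 (0.158).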

How the results depend on the processing

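The number of genes called, 4 as reported, was 8 with a pseudocount of 10, with a minimum value of 50, with TMM scaling and with upper-quartile scaling, 11 with edgeR, 99 with DESeq2 and 7 with 4 groups in 1 fit. It was 23 at an adjusted p under 0.1 and 2 at an adjusted p under 0.01. Leaving out 1 library gave 2 to 14 calls: 2 without ceftaroline replicate 2, 3, 5 or 7 or ceftaroline plus MSC replicate 2, 4, 5 or 6, and 14 without ceftaroline plus MSC replicate 7. Against ceftaroline S numbers 1 and 2 alone it was 2, with 0 of the 4 genes among them, and against S numbers 10 to 14 alone it was 2, with 1 of the 4. With the replicate number as a block limma called 0 (1297 at an unadjusted p under 0.05). Of the 14 libraries, 2 correlated best with their own number. No pairing by these numbers is stated, and this check cannot exclude a weak one, because the wide spread between libraries dominates the correlations. The 4 genes stayed called with other pseudocounts, filters, scalings, edgeR and DESeq2, and 3 of them with sample weights. Against S numbers 1 and 2 alone, 5 named genes changed sign without passing in either fit: CD80 (0.0501), GBP1 (0.70), DNAH5 (-0.23), CCDC39 (-0.16) and RPL19 (-0.11). For the difference between the MSC effects, 1 call became 41 (34 higher, 7 lower) without the NaCl and MSC libraries whose titles end in PG and 2 with a pseudocount of 10. The cause of these changes was not tested. Scaling moved the median of all genes by at most 0.01. Depth per library was highest in ceftaroline replicates 4 and 5, and its part in the values of low genes such as MPO and SLC7A11 was not tested.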

Other observations

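The SD of log2 values between libraries was larger with MSC than with ceftaroline alone in 4196 of 9924 genes (42.3%). Its median over genes was 0.40 with MSC and 0.44 with ceftaroline.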
